A study of Mus musculus with 104 samples.

Results

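The enzymes that write, copy and remove DNA methylation were taken here as 10 genes, chosen by symbol: Dnmt1, Uhrf1, Dnmt3a, Dnmt3b, Dnmt3l, Tet1, Tet2, Tet3, Tdg and Mbd3. All 10 were listed in both RNA tables of the study, of 22587 genes in the Tet1/2 table and 22559 in the Kmt2b table. The Tet1/2 table had 1 column per library: E8.5 heads of Tet1/2 double knockout (DKO, labelled Tet1-/-;Tet2-/-) and wild-type (WT) mouse embryos, 2 libraries each, and E6.5 epiblasts of DKO (2 libraries) and WT embryos (3 libraries). The columns of the WT epiblasts name no mutant line and were taken as the WT epiblast samples of the Kmt2b set, the only ones listed. On that reading the DKO and the Kmt2b comparisons at E6.5 share their controls. The Kmt2b table had 1 merged column per group: knockout (KO, labelled Kmt2b-/-) and WT, for E6.5 epiblasts (3 and 3 libraries), E8.5 heads (2 and 3) and E9.5 heads (1 and 3). CpG methylation was read in pooled Kmt2b KO and WT E8.5 heads (2 libraries each) and in Kmt2b KO E6.5 epiblasts (3 libraries). Embryos came from DBA2 males mated with C57BL/6N females, per the series design, which does not say whether this holds for the mutants. The labels name no Cre, conditional allele or pooling of embryos. They do not tie a replicate to an animal of its own, and p-values thus measure only the spread between these samples, which may be technical.

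DNA methyltransferases add a methyl group to cytosine, in mammals mostly at CpG dinucleotides. Dnmt3a and Dnmt3b methylate new sites, Dnmt3l is a catalytically inactive partner that stimulates them, and Dnmt1, guided by the hemimethylated-DNA reader Uhrf1, copies the pattern after replication. Tet1, Tet2 and Tet3 oxidize the methyl group, and the glycosylase Tdg excises the further oxidized bases so that base excision repair can restore cytosine. Mbd3, a protein of the methyl-CpG-binding family, is a subunit of the NuRD chromatin remodelling complex. After implantation the epiblast gains methylation genome-wide, and Dnmt3b is known as its leading de novo enzyme.

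The promoters of Dnmt3b and Dnmt3l are shown because the start of Dnmt3l was the only highly methylated one among the 14 placed, and that of Dnmt3b, the member with the highest RNA level in epiblasts, was among the lowly methylated ones. The 250 bases before each start are given from RefSeq (GRCm38.p6), 5′ to 3′, with each CpG in capitals. Both lie on the plus strand, Dnmt3b at chr2:153649199-153649448 and Dnmt3l at chr10:78042037-78042286.
Dnmt3b: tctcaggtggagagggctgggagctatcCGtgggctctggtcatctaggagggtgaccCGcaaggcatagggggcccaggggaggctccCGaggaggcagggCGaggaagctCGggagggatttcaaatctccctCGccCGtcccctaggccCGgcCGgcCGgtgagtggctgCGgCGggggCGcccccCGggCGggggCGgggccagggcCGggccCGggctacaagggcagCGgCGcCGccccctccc
Dnmt3l: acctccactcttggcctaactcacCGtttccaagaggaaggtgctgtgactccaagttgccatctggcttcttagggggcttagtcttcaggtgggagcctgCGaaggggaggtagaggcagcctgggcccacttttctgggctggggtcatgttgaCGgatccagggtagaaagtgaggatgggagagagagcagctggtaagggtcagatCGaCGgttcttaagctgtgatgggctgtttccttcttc
The Dnmt3b stretch held 21 CpGs and the Dnmt3l stretch 5. CpG reads the same on both strands. Of all RefSeq promoters of this length, 16.35% held 21 or more CpGs and 49.65% held 5 or fewer. For scale, the 250 bases before the Tet2 start held 51 CpGs and those before the Tet1 start 15.

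In WT E8.5 heads and E6.5 epiblasts Uhrf1 and Dnmt3b had the highest levels of the 10 genes. Uhrf1 averaged 75.8 ± 0.633 FPKM and Dnmt3b 62.8 ± 21.5 FPKM in WT heads (SD, n = 2), and their libraries overlapped. Then came Mbd3 at 30.7 FPKM, Dnmt1 at 17.0, Dnmt3a at 7.35, Tdg at 6.29, Tet3 at 3.24, Tet1 at 2.94, Tet2 at 0.459 and Dnmt3l at 0.293 FPKM, of which Dnmt3a and Tdg overlapped, as did Tet3 and Tet1. In WT epiblasts Dnmt3b led by far, at 624 FPKM, followed by Uhrf1 (57.0 ± 7.75 FPKM), Dnmt3a (46.01 ± 6.64), Mbd3 (28.4 ± 6.70), Dnmt1 (13.6 ± 2.09) and Tdg (10.6 ± 4.76; SD, n = 3). Dnmt3l followed at 5.77 ± 2.29, Tet1 at 5.36 ± 0.815, Tet3 at 1.78 ± 0.169 and Tet2 at 0.351 ± 0.129 FPKM. Neighbours in this order overlapped for Uhrf1 and Dnmt3a, for Dnmt1 and Tdg, for Tdg and Dnmt3l, and for Dnmt3l and Tet1. FPKM are per length, so levels of different genes can be set side by side. They carry no read counts, so the depth is unknown.

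The tissue labels were checked against 12 epiblast markers and 12 neural head markers. Summed epiblast marker RNA was 9.79 to 22.5 FPKM in the heads and 1196 to 2009 FPKM in the epiblasts of the Tet1/2 table. The neural head markers summed to 91.8 to 131 FPKM in the heads and to 1.24 to 7.15 FPKM in the epiblasts. The 9 columns of this table had nearly the same sorted values, as quantile normalization leaves them, and total FPKM was 459528 to 459589 per column.

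**Figure D1:**
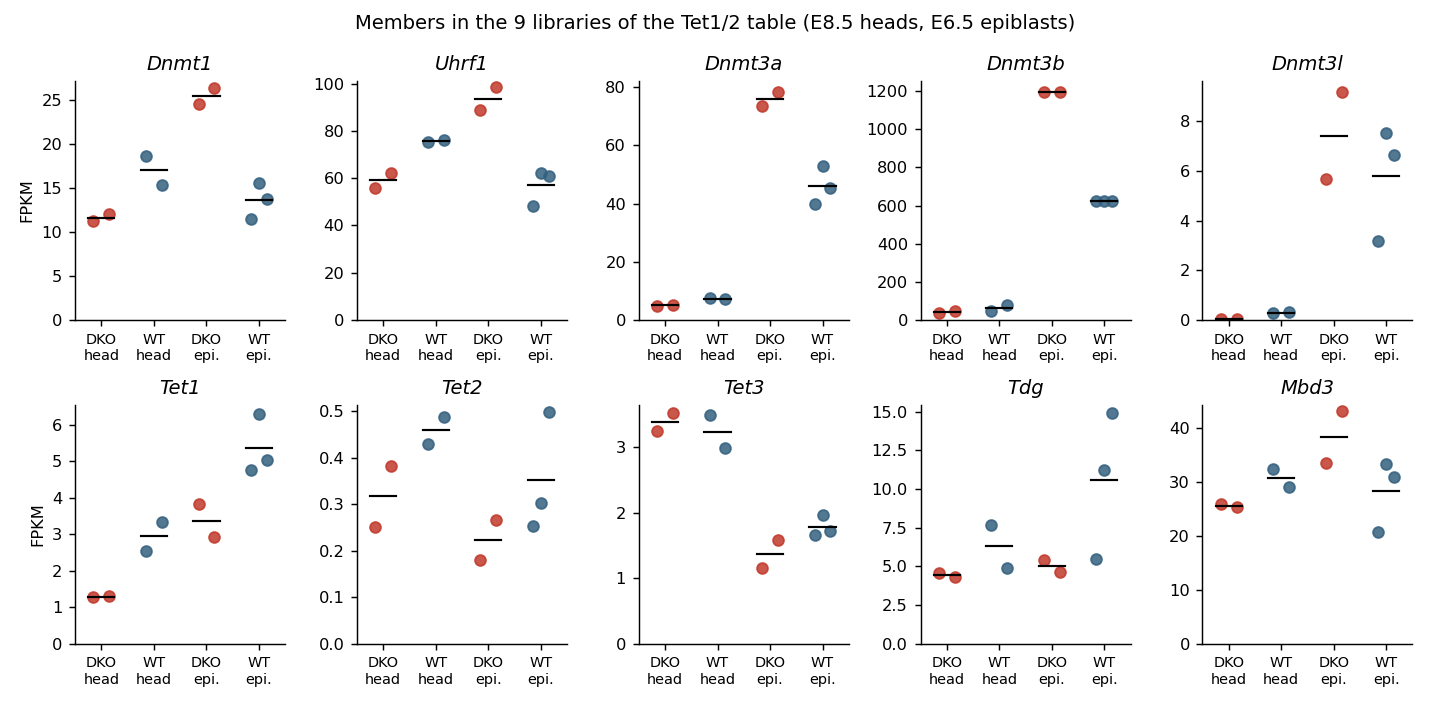
FPKM of the 10 members (panels, each with its own linear axis from 0) in the 9 libraries of the Tet1/2 table: points are libraries, black lines group means, red DKO and blue WT. Dnmt3b, Dnmt3a and Dnmt3l are low in all heads, and the DKO epiblasts lie above the WT epiblasts for Dnmt1, Uhrf1, Dnmt3a and Dnmt3b.

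The deleted genes themselves come first, as a check of the labels. Tet1 was measured at 3.82 and 2.92 FPKM in DKO epiblasts, against 4.77, 6.29 and 5.02 FPKM in WT epiblasts, and at 1.28 and 1.29 FPKM in DKO heads, against 2.55 and 3.33 FPKM in WT heads. The DKO libraries were below the WT libraries in both tissues, yet RNA assigned to Tet1 was present in all of them. In the epiblast the difference on the log2(FPKM + 1) scale was -0.54 (SE 0.183, adjusted p = 0.0485), a call that did not hold in 12 of 17 other settings, adjusted p up to 0.227. In the head it was -0.78 (SE 0.190, adjusted p = 0.157). Tet2 was measured at 0.180 and 0.266 FPKM in DKO epiblasts, against 0.254, 0.302 and 0.498 FPKM in WT epiblasts. It had 0.251 and 0.383 FPKM in DKO heads, against 0.430 and 0.488 FPKM in WT heads. The epiblast groups overlapped and the head groups did not. Tet2 stayed under the minimum of 1 FPKM in 2 columns and was not in the fits. An exact two-sided permutation test gave p = 0.4 in the epiblast, where the smallest possible is 0.1, and p = 0.333 in the head, the smallest that 2 libraries against 2 allow. Which exons the deletions remove is not given in the sources used here, and a gene-level FPKM would count any transcript that remains.

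In DKO epiblasts the methyltransferases and Uhrf1 rose. Of the 9 members tested, 4 rose and 1 fell, against 20.1% of all 11261 genes that rose and 15.2% that fell (35.3% called in either direction). The members' count stands against this high background, and nothing particular to them is read from it. The 1 that fell was Tet1, a deleted gene, taken above as a check of the labels. Median change was 0.44 for the members and 0.05 for all genes tested. As the WT epiblasts are taken to be of the Kmt2b set, sample set and genotype cannot be told apart in this comparison. Dnmt3b was measured at 1196 FPKM in both DKO epiblasts and at 624 FPKM in all 3 WT epiblasts. Equal values arise because it held rank 32 in both DKO columns and rank 95 in all 3 WT columns. Quantile normalization gives equal ranks equal values, so the spread between these libraries was not seen for Dnmt3b and its SE rests on the spread of other genes and of the heads. The difference was 0.94 (SE 0.178, adjusted p = 0.0055).

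Dnmt3a had 73.6 and 78.4 FPKM in DKO epiblasts, against 39.7, 53.0 and 45.4 FPKM in WT epiblasts, a difference of 0.72 (SE 0.130, adjusted p = 0.00444). Dnmt1 had 24.5 and 26.4 FPKM in DKO epiblasts, against 11.4, 15.6 and 13.7 FPKM in WT epiblasts. Both DKO libraries lay above every WT library for each of these enzymes, and the Dnmt1 difference was 0.87 (SE 0.150, adjusted p = 0.00379). Uhrf1 had 88.7 and 98.5 FPKM in DKO epiblasts, against 48.1, 62.1 and 60.8 FPKM in WT epiblasts (0.71, SE 0.123, adjusted p = 0.00368). These 4 calls held in all 17 other settings, with adjusted p up to 0.0272. For Dnmt3b, leaving out a replicate could not change the estimate, since its epiblast values were equal within each group. Its calls in those settings are thus no further support. Proportions between the de novo enzymes overlapped between the groups: Dnmt3b exceeded Dnmt3a by 16.2 and 15.2 times in DKO epiblasts, against 15.7, 11.8 and 13.8 times in WT epiblasts.

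The other members did not pass the test in the epiblast. Dnmt3l, the inactive partner, had 5.65 and 9.16 FPKM in DKO epiblasts, against 3.19, 7.52 and 6.62 FPKM in WT epiblasts, and the groups overlapped (0.34, SE 0.313, adjusted p = 0.42). Mbd3 had 33.4 and 43.1 FPKM in DKO epiblasts, against 20.7, 33.4 and 31.0 FPKM in WT epiblasts (0.44, SE 0.198, adjusted p = 0.117), and its highest WT library and lower DKO library were nearly equal. Tdg had 5.42 and 4.61 FPKM in DKO epiblasts, against 5.48, 11.3 and 14.9 FPKM in WT epiblasts. Its lowest WT library lay just above both DKO libraries (-0.85, SE 0.347, adjusted p = 0.088), and without WT replicate 1 the difference was -1.22 with an adjusted p of 0.0103. Tet3, the family member left intact, had 1.15 and 1.58 FPKM in DKO epiblasts, against 1.65, 1.97 and 1.71 FPKM in WT epiblasts (-0.24, SE 0.161, adjusted p = 0.281).

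Other cell type markers and cell cycle genes moved between these groups too. Summed visceral endoderm marker RNA, over 12 genes, was 5.05 and 17.4 FPKM in DKO epiblasts, against 0.551 to 1.31 FPKM in WT epiblasts, with 5 of the 12 at 0 in both DKO libraries and 8 to 10 at 0 in the WT libraries. Of these markers 2 were tested and 1 rose, Spink3, with a mean of 7.78 FPKM in DKO epiblasts and 0 in WT epiblasts. Spink3 was a large part of the sum, and it also had a mean of 20.5 FPKM in WT heads. The 12 epiblast markers summed to 2009 and 1724 FPKM in DKO epiblasts, against 1196 to 1445 FPKM in WT epiblasts. Of these 12, 5 rose, led by Dppa4 (2.18), Dppa5a (1.28) and Utf1 (1.10). Another 3 fell, namely Lefty2 (-2.33), Nodal (-2.03) and Tdgf1 (-1.54), all of the Nodal signalling pathway. The 24 S phase genes summed to 3068 and 3249 FPKM in DKO epiblasts, against 2545 to 2705 FPKM in WT epiblasts, and 12 of 24 rose and 3 fell. The part of these shifts in the members' differences was not tested. In bulk tissue, fewer cells of a type and less RNA per cell cannot be told apart.

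**Figure D2:**
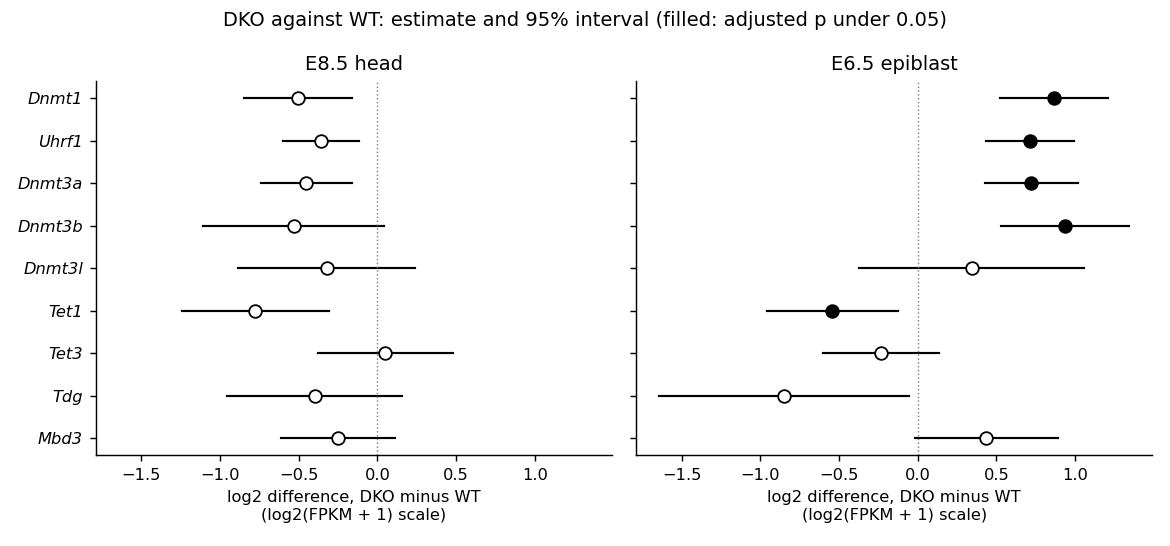
Log2 difference of DKO minus WT (log2(FPKM + 1) scale) for the 9 members tested, in the E8.5 head (left) and the E6.5 epiblast (right); points are limma estimates, lines 95% intervals, filled points have an adjusted p under 0.05. Dnmt1, Uhrf1, Dnmt3a and Dnmt3b lie right of 0 in the epiblast and left of 0 in the head, where no member passed the test.

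In DKO heads no member passed the test, 0 of 9, where 0.433% of 10864 genes did. At an unadjusted p under 0.05 there were 4 members (Tet1, Dnmt1, Dnmt3a and Uhrf1), against 16.9% of all genes. Of the 9 estimates 8 were below 0 and 1 was above, where 5173 of all 10864 genes were above 0. Tet1, a deleted gene, is among the 4 members and among the 8 estimates. Dnmt1 had 11.2 and 12.0 FPKM in DKO heads, against 18.6 and 15.3 FPKM in WT heads (-0.50, SE 0.139, adjusted p = 0.189). Uhrf1 had 55.9 and 62.2 FPKM in DKO heads, against 75.4 and 76.3 FPKM in WT heads (-0.36, SE 0.0976, adjusted p = 0.188). Dnmt3a had 4.99 and 5.22 FPKM in DKO heads, against 7.45 and 7.25 FPKM in WT heads (-0.45, SE 0.117, adjusted p = 0.174). For each of the last 3 genes both DKO heads lay below both WT heads.

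Dnmt3b had 37.7 and 46.4 FPKM in DKO heads, against 47.6 and 78.0 FPKM in WT heads, and the WT libraries differed from each other by more than the group means did (-0.53, SE 0.233, adjusted p = 0.328). Mbd3 had 25.8 and 25.4 FPKM in DKO heads, against 32.3 and 29.1 FPKM in WT heads, and Tdg 4.54 and 4.32 FPKM in DKO heads, against 7.69 and 4.90 FPKM in WT heads (adjusted p = 0.441 and 0.425). Dnmt3l was near the bottom of the scale, at 0.0338 and 0.0354 FPKM in DKO heads, against 0.280 and 0.306 FPKM in WT heads. It passed the filter of this fit only through the DKO epiblasts. Tet3 was alone in having an estimate above 0, with 3.24 and 3.53 FPKM in DKO heads, against 3.48 and 2.99 FPKM in WT heads (0.05, SE 0.174, adjusted p = 0.914), and its sign turned without WT replicate 2 (-0.03). Heart muscle markers, 10 genes, summed to 8.67 and 5.38 FPKM in DKO heads, against 36.7 and 206 FPKM in WT heads. Red cell markers, of which 8 were listed, summed to 378 and 5.71 FPKM in DKO heads, against 1.13 and 1.80 FPKM in WT heads. Whether these cells bear on the members' values was not tested.

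The effect of the double knockout differed between the tissues for 4 members. An interaction term, the DKO effect in the head minus that in the epiblast, was below 0 for Dnmt3b (-1.47, SE 0.264, adjusted p = 0.00674), Dnmt1 (-1.37, SE 0.223, adjusted p = 0.00475), Dnmt3a (-1.17, SE 0.192, adjusted p = 0.00491) and Uhrf1 (-1.07, SE 0.182, adjusted p = 0.00552). Of all 11261 genes, 26.5% were called in this term, 15.6% below 0. The same 4 members were called in each of the 16 other settings run, with adjusted p up to 0.0349. For Tet1 the term was -0.23 (SE 0.271, adjusted p = 0.546), and for Mbd3 -0.69 (adjusted p = 0.112). Tissue and stage change together between these groups and cannot be told apart.

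Between the epiblast and the head the de novo enzymes fell steeply. In WT embryos 6 of the 9 members tested differed between E8.5 heads and E6.5 epiblasts, 4 of them lower in heads, against 36.9% of all genes called. Dnmt3b had 47.6 and 78.0 FPKM in WT heads and 624 FPKM in WT epiblasts, a log2 difference of -3.34 (SE 0.178, adjusted p = 1.02e-05). Dnmt3a fell by 2.48 (SE 0.130, adjusted p = 9.04e-06), Dnmt3l by 2.32 (SE 0.313, adjusted p = 0.000797) and Tet1 by 0.69 (SE 0.183, adjusted p = 0.0186). Dnmt3l was under 1 FPKM in every head and passed the filter only through the epiblasts, so a fall was favoured by the filter. Tet3 rose by 0.61 (SE 0.161, adjusted p = 0.0187) and Uhrf1 by 0.41 (SE 0.123, adjusted p = 0.0287). Dnmt1 (0.31, adjusted p = 0.144), Mbd3 (0.14) and Tdg (-0.60, adjusted p = 0.213) did not pass. The calls of Dnmt3b, Dnmt3a and Dnmt3l held whichever replicate was left out. Those of Tet1, Tet3 and Uhrf1 did not: without WT head replicate 1 their adjusted p was 0.154, 0.139 and 0.121, and the count was 3. Rises made up 19.9% of all genes and falls 17.1%.

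In DKO embryos 7 of 9 differed between heads and epiblasts, 6 lower in heads, against 49.8% of all genes called (26.1% lower and 23.7% higher). Dnmt3b fell by 4.80 (SE 0.195, adjusted p = 4.1e-06), Dnmt3a by 3.66 (SE 0.142), Dnmt3l by 2.99 (SE 0.343), Dnmt1 by 1.06 (SE 0.165, adjusted p = 0.00118), Tet1 by 0.92 (SE 0.200) and Uhrf1 by 0.66 (SE 0.134, adjusted p = 0.00443). The limit given above for Dnmt3l holds here too. Tet3 rose by 0.90 (SE 0.177, adjusted p = 0.00372). Uhrf1 was thus lower in DKO heads than in DKO epiblasts and higher in WT heads than in WT epiblasts, and the interaction term above is the test of that difference.

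The makeup of Tet RNA changed with tissue. Tet3 supplied 67.9% and 67.8% of the summed Tet FPKM in DKO heads, against 53.9% and 44.0% in WT heads. In epiblasts it supplied 22.4% and 33.1% in DKO libraries, against 24.8%, 23.0% and 23.7% in WT libraries, and Tet1 supplied most of the rest. Summed Tet RNA was 4.77 and 5.21 FPKM in DKO heads, against 6.46 and 6.81 FPKM in WT heads, and 5.15 and 4.76 FPKM in DKO epiblasts, against 6.67, 8.56 and 7.24 FPKM in WT epiblasts. Tet1 supplied 26.9% and 24.9% in DKO heads, against 39.5% and 48.9% in WT heads.

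**Figure D3:**
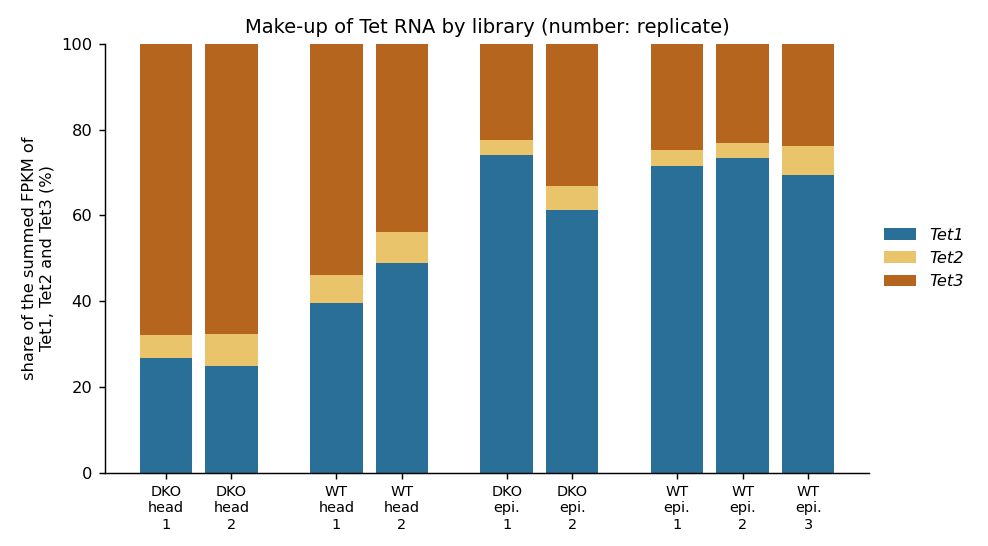
Share (%) of the summed FPKM of Tet1, Tet2 and Tet3 in each of the 9 libraries of the Tet1/2 table, 1 bar per library. Tet3 has the largest part in DKO heads, 67.8% or more, and Tet1 the largest part in all epiblasts.

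Genes that work with these enzymes were grouped in lists. The counts in the epiblast stand against 20.1% of all genes that rose and 15.2% that fell. In DKO epiblasts, of methyl-CpG readers 3 of 5 tested rose and 0 fell. Of base excision repair genes 6 of 17 rose and 1 fell, led by Ung, a uracil glycosylase (1.38, adjusted p = 0.00107), Lig1, a DNA ligase (0.78), and Fen1, a flap endonuclease (0.66). Of recruiters and regulators of the enzymes 11 of 22 rose and 2 fell, led by the RNA-binding protein gene Lin28a (1.35, adjusted p = 0.00186), the histone methyltransferase gene Ehmt2 (0.96) and the corepressor gene Trim28 (0.85). Of genes of S-adenosylmethionine and 2-oxoglutarate metabolism 5 of 22 rose and 0 fell, led by Idh1 (1.18), Mthfd1 (0.97) and Shmt2 (0.78). Of the NuRD complex, to which Mbd3 belongs, 6 of 12 rose and 2 fell: Mta2 rose by 1.23 and Chd4, its remodelling ATPase, by 1.16, and Cdk2ap1 fell by 1.19. Of germline genes known to be silenced by promoter methylation 4 of 14 tested rose and 1 fell, led by Rpl10l (1.45, adjusted p = 0.0271) and Ddx4 (0.96). Medians of these lists ran from 0.06 to 0.57, against 0.05 for all genes. In DKO heads, where 0.433% of all genes passed, 2 genes of the same 6 lists did: the repair glycosylase gene Mutyh (1.13) and Hdac1, the NuRD deacetylase (2.48, adjusted p = 0.00438).

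Between WT heads and WT epiblasts, 10 of the 14 tested germline genes fell and 1 rose, with a median of -1.23, where 17.1% of all genes fell and 19.9% rose. Sycp3, a protein of the meiotic chromosome axis, had 0.0809 and 0.258 FPKM in WT heads, against 22.1, 23.6 and 26.3 FPKM in WT epiblasts. In DKO embryos Sycp3 was listed at 0 and at 0.0631 FPKM in heads, against 13.95 and 20.7 FPKM in epiblasts. The germline list in DKO embryos had 12 of 14 lower in heads and 0 higher, with a median of -1.69, where 26.1% of all genes were lower and 23.7% higher. Of the 29 genes in the list, 1 reached 1 FPKM in each head library, against 10 to 16 in the epiblast libraries. Most tested genes thus passed the filter through the epiblasts. A fall in heads was favoured by the filter, and these counts are not read as a result.

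Across the 9 libraries the genes most alike to Dnmt3b, by Pearson correlation of log2(FPKM + 1) over 11261 genes, were Cbx7, Pou5f1 and Vrtn (r = 0.996 each). For Dnmt3a they were Cbx7, Impa2 and Sssca1 (0.996 to 0.998), for Tet1 Dhps, Timp1 and Tspo (0.958 to 0.990), for Tet3 Gprasp2, Shfm1 and Cmtm3 (0.980 to 0.988), and for Uhrf1 Ppp2r4, Vps37b and Dctn1 (0.981 to 0.985). These values describe 9 libraries that fall into 2 tissues, so any gene with the same tissue difference scores high, and they carry no p-value.

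In Kmt2b KO columns the members' levels on the log2(FPKM + 1) scale were within 2-fold of WT. Kmt2b is a histone H3 lysine methyltransferase. The targeted gene, listed as Wbp7, was at 0.308, 0.133 and 0.0349 FPKM in KO columns at E6.5, E8.5 and E9.5, against 0.701, 0.600 and 1.203 FPKM in WT columns. Of the 9 members over the filter, 0 differed by 2-fold or more at E6.5, E8.5 or E9.5, where 1.69%, 4.72% and 8.27% of 11070 genes did. Past a 1.5-fold line was 1 member at each stage, Dnmt1 at E6.5 and Dnmt3b at E8.5 and E9.5, where 9.23%, 16.2% and 25.7% of genes were. Columns are merged over replicates, so the differences carry neither an error nor a test.

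Dnmt1 showed the largest difference at E6.5, 24.5 FPKM in KO epiblasts and 13.5 FPKM in WT epiblasts (0.81 on the log2 scale), followed by Tet1 with 8.09 FPKM in KO and 5.53 FPKM in WT epiblasts (0.48) and Uhrf1 with 74.9 FPKM in KO and 55.2 FPKM in WT epiblasts (0.43). In the DKO comparison, taken to use the same WT epiblasts, Dnmt1 and Uhrf1 were 0.87 and 0.71 higher and Tet1 was 0.54 lower. Dnmt3b had 726 FPKM in KO and 614 FPKM in WT epiblasts (0.24) and Dnmt3a 48.7 FPKM in KO and 45.2 FPKM in WT epiblasts (0.11). Summed epiblast markers were at 1703 FPKM in the KO column and at 1288 FPKM in the WT column, but 5 of the 12 were higher in the KO column and their median difference was -0.08, against -0.02 for all genes.

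At E8.5 Dnmt3b showed the largest difference of the members, with 93.4 FPKM in KO heads and 55.2 FPKM in WT heads (0.75). Of all genes, 9.95% differed as much. The WT heads of the Tet1/2 table, which are other samples, had 47.6 and 78.0 FPKM of Dnmt3b (SD 0.495 on the log2 scale). Epiblast markers summed to 75.4 FPKM in KO heads and 14.8 FPKM in WT heads, and neural head markers to 37.3 FPKM in KO heads and 105 FPKM in WT heads. Their part in the Dnmt3b value was not tested. Dnmt1 had 14.5 FPKM in KO and 17.8 FPKM in WT heads (-0.28), and Uhrf1 61.5 FPKM in KO and 72.9 FPKM in WT heads (-0.24). At E9.5 Dnmt3b again showed the largest difference, 22.5 FPKM in KO and 12.6 FPKM in WT heads (0.78). The E9.5 columns were not normalized with the others, and the KO column is 1 library, named with a code other than head. Its heart muscle markers summed to 2591 FPKM, against 23.4 FPKM in WT heads. Red cell markers summed to 5871 FPKM in the E9.5 KO column and to 15774 FPKM in E9.5 WT heads. At E8.5 they summed to 7.45 FPKM in KO heads and 99.6 FPKM in WT heads. The part of these cells in the members' values was not tested. Tet1 had the higher value in the KO column at all 3 stages (0.48, 0.28 and 0.52), and Tet3 the lower (-0.14, -0.15 and -0.31).

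The merged WT columns gave the course over 3 stages. Dnmt3b had 614 FPKM at E6.5, 55.2 at E8.5 and 12.6 at E9.5, and Dnmt3a 45.2, 6.51 and 5.74 FPKM. Tet3 took the opposite course, with 1.86, 3.27 and 5.99 FPKM, and passed Tet1, which had 5.53, 2.50 and 2.86 FPKM. Dnmt1 (13.5, 17.8 and 18.8 FPKM), Uhrf1 (55.2, 72.9 and 54.3), Tdg (10.2, 7.91 and 9.38) and Mbd3 (27.9, 30.1 and 25.6) stayed within 2-fold on the log2(FPKM + 1) scale. Dnmt3l had 6.00 and 0.334 FPKM at E6.5 and E8.5 and was listed at 0 at E9.5. It passed the filter only through the E6.5 columns, where it is high. By the 2-fold line 3 members were lower at E8.5 than at E6.5 (Dnmt3a, Dnmt3b and Dnmt3l, where 14.2% of all genes were past the line, 7% lower) and 4 differed at E9.5 (the same 3 lower and Tet3 higher, where 31.6% were, 16.6% lower and 15% higher). From E8.5 to E9.5 Dnmt3b alone was past it, -2.04 in WT columns (19.1% of genes, 10.3% lower) and -2.01 in KO columns (11.7% of genes, 6% lower). The E9.5 columns were not normalized with the others. The E9.5 KO column is the 1 library with high heart muscle markers, named with a code other than head. In KO columns 4 members were lower at E8.5 than at E6.5, namely Dnmt3b (-2.95), Dnmt3a (-2.60), Dnmt3l (-2.48) and Tet1 (-1.10), where 13.7% of genes were past the line, 6.86% lower.

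**Figure D4:**
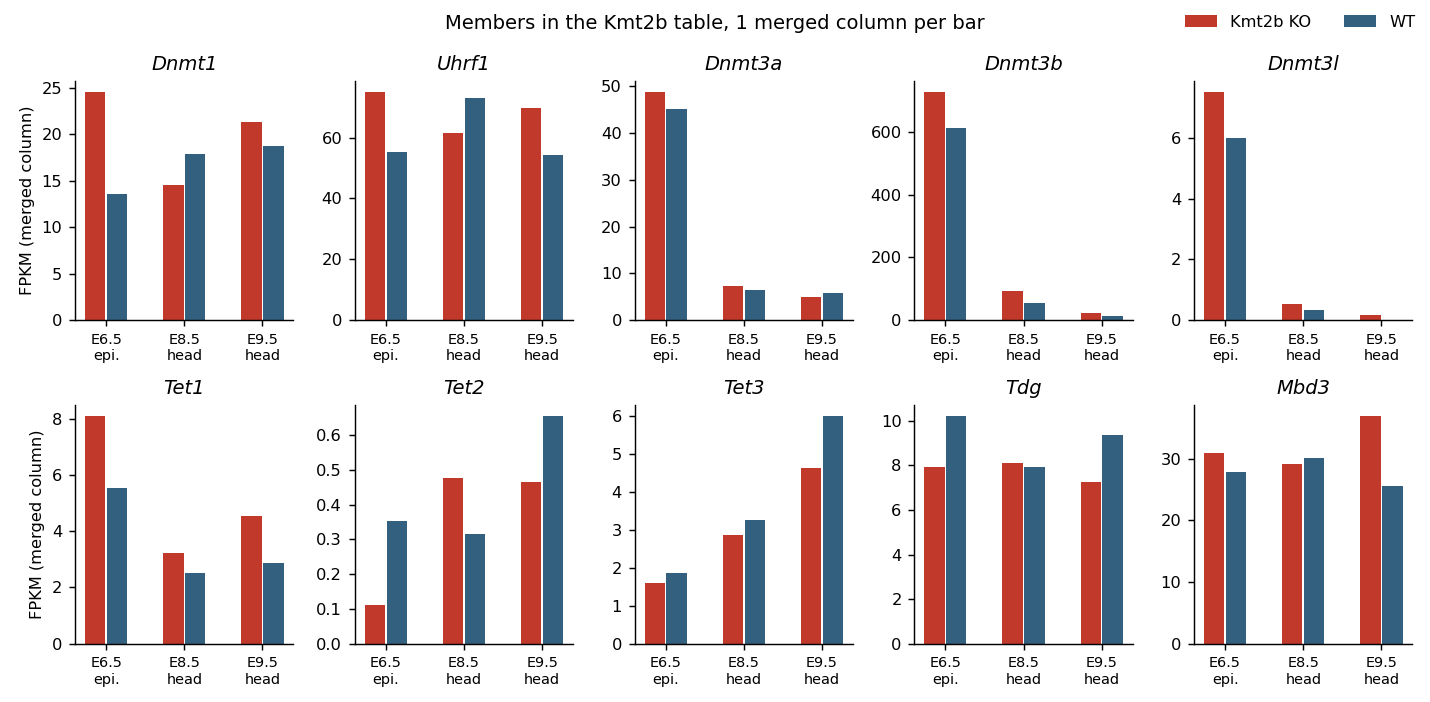
FPKM of the 10 members (panels, each with its own linear axis from 0) in the merged columns of the Kmt2b table, by stage, KO in red left of WT in blue. Dnmt3b, Dnmt3a and Dnmt3l drop after E6.5 in KO and WT alike and Tet3 climbs, and Dnmt3l is listed at 0 in the E9.5 WT column.

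Methylation at the members' own promoters was low at every start placed but one. Of 17 RefSeq starts of the members, 14 were found in the authors' CpG list. In reads within 1000 bp of each start, 13 of these 14 were at most 5.62% methylated in Kmt2b KO heads, 7.23% in WT heads and 9.56% in KO epiblasts. The 14 windows are not all separate places. Those of both Dnmt1 starts overlap and share reads, as do those of both Uhrf1 starts and of the first and second Dnmt3a starts. Over 17807 promoter windows the median was 5.99% in KO heads, 4.98% in WT heads and 10.1% in KO epiblasts, and 62.6%, 65.5% and 49.5% of windows were under 10%. The level over all CpGs was 67.6% in KO heads, 68.2% in WT heads and 67.8% in KO epiblasts.

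The exception was Dnmt3l, whose first start is the CpG-poor sequence printed above. It was 75.2% methylated in KO heads (109 reads, Wilson 95% interval 66.4 to 82.4%), 75% in WT heads (104 reads, 65.9 to 82.3%) and 73.3% in KO epiblasts (90 reads, 63.4 to 81.4%). At 50% or more were 16.9%, 16.6% and 17.4% of all windows. Dnmt3l RNA was at 0.532 FPKM in KO heads, 0.334 in WT heads and 7.52 in KO epiblasts, while these 3 methylation values lie within each other's intervals. The likeness of KO and WT heads depended on the setting. KO minus WT was 0.23 points as reported, -13.57 within 500 bp, -4.29 with CpGs of at least 3 reads and -20.37 with CpGs of at least 5 reads. A CpG-denser stretch centred 1375 bp after the start, with 16 CpGs, was 2.5% methylated in KO heads, 4% in WT heads and 2.27% in KO epiblasts (80, 100 and 44 reads). The other 2 starts that RefSeq lists for Dnmt3l hold too few CpGs to be placed.

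Around the Dnmt3b start, the CpG-rich sequence printed above, methylation was 4.48% in KO heads (3.01 to 6.64%, 513 reads) and 0.824% in WT heads (0.418 to 1.62%, 971 reads), and 5.05% in KO epiblasts (3.13 to 8.04%, 317 reads). Within 500 bp the Dnmt3b difference of KO minus WT heads was 1.67 points, against 3.66 points within 1000 bp. Tdg had 5.44% in KO heads and 1.99% in WT heads, and the first Dnmt3a start 2.32% in KO heads (1.61 to 3.33%) and 0.860% in WT heads (0.503 to 1.47%). Other starts were lower in KO heads: the third Dnmt3a start had 4.07% in KO heads and 7.23% in WT heads, the second Uhrf1 start 1.64% in KO heads and 4.32% in WT heads, and the first Uhrf1 start 4.60% in KO heads and 6.04% in WT heads. The Tet1 start had 1.66% in KO heads and 2.10% in WT heads, and the Tet2 start 1.63% in KO heads and 0.867% in WT heads. The second Dnmt3a start, which shares reads with the first, had 2.24% in KO heads (1.56 to 3.19%) and 0.644% in WT heads (0.350 to 1.18%). The intervals of Dnmt3b and of the first and second Dnmt3a starts did not overlap between KO and WT heads. But these intervals cover counting error only, replicates are pooled and no test was possible. Of the 14 windows, 0 differed by 10 points or more between KO and WT heads, as did 9.32% of all windows, and the quartiles over all windows were -1.17 and 2.71 points.

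**Figure D5:**
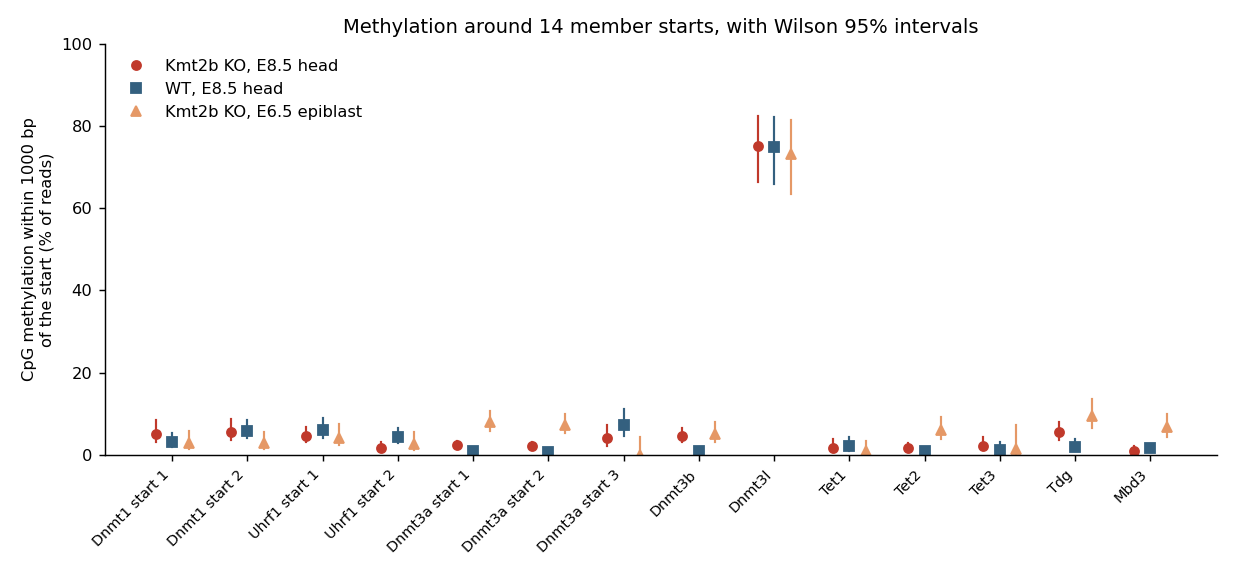
CpG methylation (% of reads) within 1000 bp of 14 start sites of the members in Kmt2b KO E8.5 heads (circles), WT E8.5 heads (squares) and Kmt2b KO E6.5 epiblasts (triangles), with Wilson 95% intervals for counting error. Dnmt3l lies at 73.3 to 75.2% in all 3 pools, and the other 13 starts lie under 10%.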

How the data were processed

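RNA and CpG methylation were read from tables deposited by the authors. The authors made FPKM from Smart-seq2 libraries. The submitters' processing notes name the build mm9 and, among the tools, Cufflinks 2.0.2 and TopHat2 2.0.11. The 9 columns of the Tet1/2 table agreed rank by rank within 0.272% at 1 FPKM or more, and the E6.5 and E8.5 columns of the Kmt2b table within 0.507%, as quantile normalization leaves them. Equal ranks then have equal values, and a shift shared by most genes cannot be seen. The E9.5 columns differed by up to 72.3% (WT) and 41.1% (KO). In the table of Kmt2b samples, 27 rows bear dates in place of gene names and were dropped, and 2 columns of no listed sample were not used. Genes for small RNAs were left out of both tables.

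For the Tet1/2 table, limma 3.58.1 (R 4.3.3) was run on log2(FPKM + 1) over genes that reached 1 FPKM in 2 or more columns (eBayes with a mean trend, two-sided, Benjamini-Hochberg adjusted p under 0.05 over all genes). Differences on this scale understate the change of low genes. The fit for the heads held the DKO epiblasts and both head groups, and the other contrasts held all 9 libraries. The scripts were tested on simulated data. A limma test over libraries was planned for the Kmt2b table, but its columns are merged, so differences of 2-fold or more were counted with no test. Tet2 and Wbp7 were under the filter.

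Methylation files deposited by the authors hold counts of methylated and unmethylated reads per CpG and strand, with the replicates of each group pooled per the labels' descriptions, and the submitters' processing notes list BS-Seeker2 and Trim Galore. Mean depth was 1.97 reads per CpG in KO heads, 2.12 in WT heads and 1.37 in KO epiblasts. No mm9 annotation was used. Instead, RefSeq promoter sequences (GRCm38.p6) with at least 6 CpGs were placed in the mm9 CpG list by the exact spacing of their CpGs, a step chosen after the files were seen, since promoter methylation had been planned for the case that such an annotation was given. Of 18541 such promoters 18284 were placed once, all 18284 on the chromosome that RefSeq names. Windows had at least 20 reads. Intervals (Wilson, 95%) cover counting error only, and no source used here names molecular identifiers.

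The members, the other gene lists and the tests were chosen with earlier results of these data known. Named were all 10 members, Wbp7, up to 3 members of each list past the test, largest first, among those reaching 5 FPKM in either group's mean, and the 3 genes most alike to each of 5 members. Of the epiblast markers in DKO epiblasts, up to 3 in each direction were named. Values of Sycp3, Hdac1 and Lin28a by library, the bin after the Dnmt3l start and the promoters shown were chosen after their values were seen. Python 3.11.15 with pandas 2.3.3, numpy 2.4.6 and scipy 1.17.1 was used.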

Additional observations from a re-analysis of the deposited data

Results flagged for a closer look

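For Dnmt1, Dnmt3a, Dnmt3b and Uhrf1 the effect of the Tet1/2 double knockout differed between the tissues by a test of the difference itself, which 26.5% of all 11261 genes passed, 15.6% below 0. The DKO effect in the E8.5 head minus that in the E6.5 epiblast was -1.37 for Dnmt1, -1.17 for Dnmt3a, -1.47 for Dnmt3b and -1.07 for Uhrf1 on the log2 scale (limma, adjusted p = 0.00475, 0.00491, 0.00674 and 0.00552). For Dnmt1, Dnmt3a and Uhrf1, both DKO heads lay below both WT heads and both DKO epiblasts above all 3 WT epiblasts. For Dnmt3b, the epiblasts were likewise apart and both DKO heads were below both WT heads, by as little as 46.4 FPKM in a DKO head against 47.6 FPKM in a WT head. As the WT epiblasts are taken to be of the Kmt2b set, sample set and genotype cannot be told apart in the epiblast part.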

How the results depend on the processing

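Counts of members called stayed within 1.5 times of those reported, apart from these. Between WT heads and WT epiblasts the count was 3 to 7 when single replicates were left out, against 6, with 3 reached without WT head replicate 1. With a 1.5-fold line in place of 2-fold, the Kmt2b table had 1 member past it at E6.5 (Dnmt1), 1 at E8.5 and 1 at E9.5 (Dnmt3b at both), where 9.23%, 16.2% and 25.7% of genes were, and with a pseudocount of 0.1 it had 1 at E9.5 (Dnmt3l, 1.48). Windows with a KO minus WT difference of 10 points or more numbered 1 within 500 bp (Dnmt3l, -13.57 points) and 1 with CpGs of at least 5 reads (Dnmt3l, -20.37 points), against 0. The cause was not tested. In the limma fits the sign turned for 2 results, in comparisons that the member passed in no setting. These were Tet3 in DKO against WT heads without WT head replicate 2 (-0.033, up to 0.134 without others), and Mbd3 in WT heads against WT epiblasts without WT epiblast replicate 1 (-0.065, adjusted p = 0.758, up to 0.265 without others). With no test, signs also turned for KO minus WT promoter methylation of Tet3 (1.001; -0.28 within 500 bp and -0.35 with at least 5 reads), Dnmt3l (0.23; also -4.29 with at least 3 reads), the first Uhrf1 start (-1.44; 1.32 with at least 5 reads), the second Dnmt1 start (-0.19; 1.09 with at least 3 reads and 0.38 within 500 bp) and Tet1 (-0.43; 0.13 with at least 3 reads). In WT E9.5 heads against E6.5 epiblasts, they turned for Uhrf1 (-0.02; up to 0.145) and Mbd3 (-0.12; up to 0.031) when the columns were quantile normalized together. Over all genes, the call count of DKO against WT heads moved by the largest factor of these counts: 3 and 8 without DKO head replicates 1 and 2, 7 and 10 without WT head replicates 1 and 2, 304 and 246 without DKO epiblast replicates 1 and 2, 28 with no filter, 160 with all 9 libraries in the fit, against 47, and 0 members each time. In the epiblast it was 2567 with epiblast libraries only and 2501 without DKO epiblast replicate 2, against 3970. In the interaction it was 1609 and 1677 without WT head replicates 1 and 2 and 1162 and 1641 without DKO head replicates 1 and 2, against 2981. Between heads and epiblasts it was 2157 and 2771 without WT head replicates 1 and 2, against 4160 in WT embryos, and 3356 without DKO head replicate 1, against 5612 in DKO embryos. Genes past 2-fold in the Kmt2b table numbered 587, 1149 and 1708 at E6.5, E8.5 and E9.5 with a pseudocount of 0.1 and 41, 152 and 325 with one of 5, against 187, 522 and 915, and 1022, 1796 and 2848 were past 1.5-fold. The difference of replicate 1 and replicate 2 was nearly uncorrelated over genes between DKO and WT (r = 0.061 in heads and 0.078 in epiblasts). The labels do not say whether a number marks a shared litter or day, and this correlation cannot exclude it. With a replicate block, 228 genes were called in DKO heads, 0 of them members, and 1869 in the interaction, against 2981. In the epiblast the block ended the call of Tet1 (adjusted p = 0.123) and gave Mbd3 one (0.51, adjusted p = 0.0466).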

Other observations

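Hdac1, the NuRD deacetylase, had 49.3 and 55.9 FPKM in DKO heads, against 8.38 and 8.78 FPKM in WT heads of the Tet1/2 table. In the Kmt2b table, whose E8.5 WT heads are other samples, it had 68.2 FPKM in KO heads and 19.0 FPKM in WT heads, a log2 difference of 1.79. At E9.5 it had 38.8 FPKM in KO heads and 28.8 FPKM in WT heads. In epiblasts it had 54.8 and 67.8 FPKM in DKO libraries, against 94.1, 92.4 and 95.6 FPKM in WT libraries, and 80.5 FPKM in the Kmt2b KO column, against 90.7 FPKM in the WT column. The E8.5 WT heads of both tables were thus below every mutant head of that stage.

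Lin28a, an RNA-binding protein gene of early embryos, was higher in both kinds of mutant epiblast. It had 66.1 and 53.7 FPKM in DKO epiblasts, against 17.7, 26.7 and 24.9 FPKM in WT epiblasts, and 63.2 FPKM in the Kmt2b KO column, against 22.8 FPKM in the merged WT column. The comparisons are taken to share these WT libraries. In heads it had 23.6 and 26.1 FPKM in DKO libraries, against 35.2 and 48.1 FPKM in WT libraries. In the Kmt2b table E8.5 heads had 35.9 FPKM (KO) and 40.9 FPKM (WT), while E9.5 heads had 16.5 FPKM (KO) and 7.72 FPKM (WT).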
